A study of Xiphophorus maculatus with 65 samples.

Results

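The 45 genes described here encode the enzymes and cofactors of base excision repair (BER) and nucleotide excision repair (NER). They were chosen by symbol, as the rows of the count table whose NCBI gene symbol in the X. maculatus annotation was on a fixed list of repair genes, and they make up 45 of the 27242 gene models counted. All 45 passed the filter on low counts in every comparison below. RNA of skin and liver was sequenced from males of 2 inbred platyfish (Xiphophorus maculatus) strains, Jp163 B (JpB) and Jp163 A (JpA), whose hybrids with X. hellerii are used as melanoma models. The question put to the data is whether the strains, which are otherwise closely related, differ in gene expression before any treatment.

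The samples fell into 4 groups. JpB skin had 30 libraries of fish of 9 to 12 months (label years A to E), JpA skin had 25 libraries of fish of 13, 20 and 24 months (years D and E), JpB liver had 4 libraries of 9-month fish (year E) and JpA liver had 6 libraries of 20-month (4, year D) and 13-month fish (2, year E). The 5 calendar years of the label dates are lettered in order, A the earliest and E the latest. The labels do not say what a date marks, and 1 fish label can carry several dates. All were control samples, marked in the labels as 0 min, 0pt, sham, UV-0KJ or CO-0min, or, in 16 JpA skins of 24-month fish, by an hour of the day. In no label year were JpB and JpA fish of the same age, so that strain and age cannot be told apart in these data. The strains shared no label date either, also within years D and E. Fits within a year or with year as a covariate therefore do not separate strain from label date. In 4 pairs of JpB skin libraries of 1 fish label the counts differed little (a chi-square ratio per degree of freedom between 2.01 and 2.78, where other pairs of 1 label had 9.30 or more) and were summed, which left 61 samples: 26 of JpB skin, 25 of JpA skin, 4 of JpB liver and 6 of JpA liver. Other pairs of 1 fish label that were kept apart, JpB skin 15 and 16 (9.30) and JpB skin 4 with 5 or 6 (13.8 and 13.6), also differed less than any pair of different JpB fish compared (30.8 or more). JpA skin 22 and 23 (86.5), JpA skin 24 and 25 (332) and JpA liver 3 and 4 (226), each pair of 1 fish label, were kept apart too. Total counts ranged over 26843901 to 98104664 per library. They were 83960180 to 97639817 in JpB livers and 29871688 to 77377846 in JpA livers, so that every JpB liver was sequenced deeper than every JpA liver. The median was 56419177.5 in JpB skin and 36548693 in JpA skin. JpB skin 11 and 12 had high muscle scores (mean log2 CPM of 3 muscle genes, 8.45 and 8.71), as did JpB skin 1 (8.86), against at most 6.68 in the other JpB skins, and they had low division scores (mean log2 CPM of 30 mitosis genes, none a member, 2.47 and 0.87). JpB skin 3 differed from the other libraries of its fish label. The titles of JpA liver 5 and 6 give JpB. Their strain field gives JpA, and their column names start like those of the other JpA libraries. The study also lists 6 JpA and 4 JpB liver samples. Strain in skin is also given without JpB skin 3 and without JpB skin 11 and 12. Age in JpB and the slopes on the division score over all skin are also given without JpB skin 11 and 12. They were not fitted without JpB skin 3. Strain in liver and strain by tissue are also given without JpA liver 5 and 6. Strain by tissue was not fitted without these skins. No fit was made to test leaving out JpB skin 1. As the only skin of year A it is absent from fits limited to other years, such as strain within years D and E and age in JpB. Where labels do not show separate fish, p-values measure only the spread between these samples.

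BER removes small lesions, such as oxidised, deaminated or alkylated bases. A glycosylase lifts out the damaged base, the endonuclease Apex1 cuts the backbone, a polymerase fills the gap and a ligase seals it, with Parp1, Xrcc1 and Aptx handling the nick and its ends. NER removes bulky lesions such as the pyrimidine dimers made by UV light. Xpc and the Ddb1-Ddb2 complex find the lesion anywhere in the genome, while Ercc6 and Ercc8 act where an RNA polymerase has stalled. The TFIIH helicases then open the helix, Xpa and the RPA complex hold it, and the nucleases Ercc5 and Ercc1-Ercc4 cut out the damaged strand. Several members, among them pcna, lig1, fen1, pole, pold1 and the RPA genes, also serve DNA replication. Fish carry photolyases as well, which repair UV lesions directly and are not members.

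Levels below are CPM, counts relative to a library total scaled by the TMM method over all 61 samples. They compare 1 gene between samples, not genes with each other, since transcript lengths were not used. A member is said to have risen or fallen where its p-value, adjusted over all genes tested by the Benjamini-Hochberg method in edgeR's quasi-likelihood test, was under 0.05. Counts of members with an unadjusted p under 0.05 are given with no such count over all genes. They cannot be compared with the adjusted shares of all genes. The fewest counts of a member in any sample ran from 2 for smug1, 4 for ung and 9 for pole to 712 for ddb1. Within a strain the skin samples varied least for ercc3 in JpB (coefficient of variation 9.50%) and for uvssa in JpA (14.0%). They varied most for rpa3 in JpB (51.1%) and for xpc in JpA (68.2%).

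6 of the members differed between the strains in skin over all years, and the sizes were modest. In bulk samples fewer cells of a type and less RNA per cell cannot be told apart. Of 12 hepatocyte genes 5 rose in JpB skin (summed 49.0 to 190 CPM in JpB skin against 39.2 to 143 CPM in JpA skin, none at 0), and of 11 melanophore genes 4 rose and 1 fell (summed 137 to 255 CPM in JpB skin against 127 to 212 CPM in JpA skin, none at 0). Their part in the results was not tested. The count of members is 6 of 45, or 13.3%, against 25.4% of all 20028 genes tested (13.2% higher and 12.3% lower). In JpB skin mbd4, neil1 and ercc1 rose, and xpc, apex2 and xpa fell, relative to JpA skin. No member passed the 3 limits that the study put together (the adjusted p, a log2 fold change of 1 or more either way, and a ROC area of 0.8 or more), which 1.57% of all genes passed, and in none did the strains' samples lie fully apart, against 0.145% of all genes. The median log2 fold change of the members was 0.01, beside 0.02 over all genes.

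Among the glycosylases, mbd4 (chr1:20589144-20593191), which removes thymine and uracil mispaired with guanine at CpG sites, had 8.92, 12.5 and 20.3 CPM as lowest, median and highest in JpB skin, against 2.82, 9.07 and 14.5 CPM in JpA skin. The ranges of the strains overlap, and the low tail is made of JpA samples. Its log2 fold change was 0.55 ± 0.12 (SE, n = 26 and 25, edgeR adjusted p = 0.000944). The oxidised-base glycosylase neil1 (chr2:8722698-8729155) had 10.5, 17.3 and 26.4 CPM in JpB skin against 5.70, 14.4 and 27.8 CPM in JpA skin. Its log2 fold change was 0.34 ± 0.13 (edgeR adjusted p = 0.0404), with wide overlap. With all libraries of a fish label summed (46 samples) neil1 gave 0.31 and did not pass (edgeR adjusted p = 0.0779). The other 5 members kept their calls there, against 23.7% of all genes. The oxidised-guanine glycosylase ogg1 had 2.41, 3.90 and 6.22 CPM in JpB skin against 1.93, 4.23 and 9.32 CPM in JpA skin, a log2 fold change of -0.14 ± 0.13 that did not pass (edgeR adjusted p = 0.446). The remaining 7 glycosylases did not pass either.

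In the later steps of BER, only apex2 fell, 1 of 13. It encodes a relative of the main abasic-site endonuclease, and had 1.09, 2.10 and 2.96 CPM in JpB skin against 1.22, 2.55 and 3.79 CPM in JpA skin, with a log2 fold change of -0.31 ± 0.10 (edgeR adjusted p = 0.0202). The ligase lig1, which seals nicks in replication and long-patch repair, gave -0.13 with an interval that includes 0. The leading-strand polymerase pole gave 0.30 and the lagging-strand polymerase pold1 -0.13, both without passing the test.

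In NER, the lesion sensor xpc (chr1:9022289-9033641) fell. It had 5.28, 8.66 and 21.0 CPM in JpB skin against 7.51, 12.3 and 53.2 CPM in JpA skin, with a log2 fold change of -0.72 ± 0.18 (edgeR adjusted p = 0.0027). The ranges overlap, and the JpA values above 45 CPM are 2 libraries of a single hour described further on. xpa, the scaffold that verifies the lesion, had 6.08, 8.10 and 12.2 CPM in JpB skin against 6.97, 9.72 and 14.1 CPM in JpA skin, a log2 fold change of -0.21 ± 0.08 (edgeR adjusted p = 0.0357). ercc1, the partner of the nuclease Ercc4, had 6.64, 8.24 and 10.8 CPM in JpB skin against 5.45, 6.54 and 15.2 CPM in JpA skin, a log2 fold change of 0.24 ± 0.08 (edgeR adjusted p = 0.024). None of the 4 members for transcription-coupled repair, 6 TFIIH members and 3 RPA members passed.

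**Figure D1:**
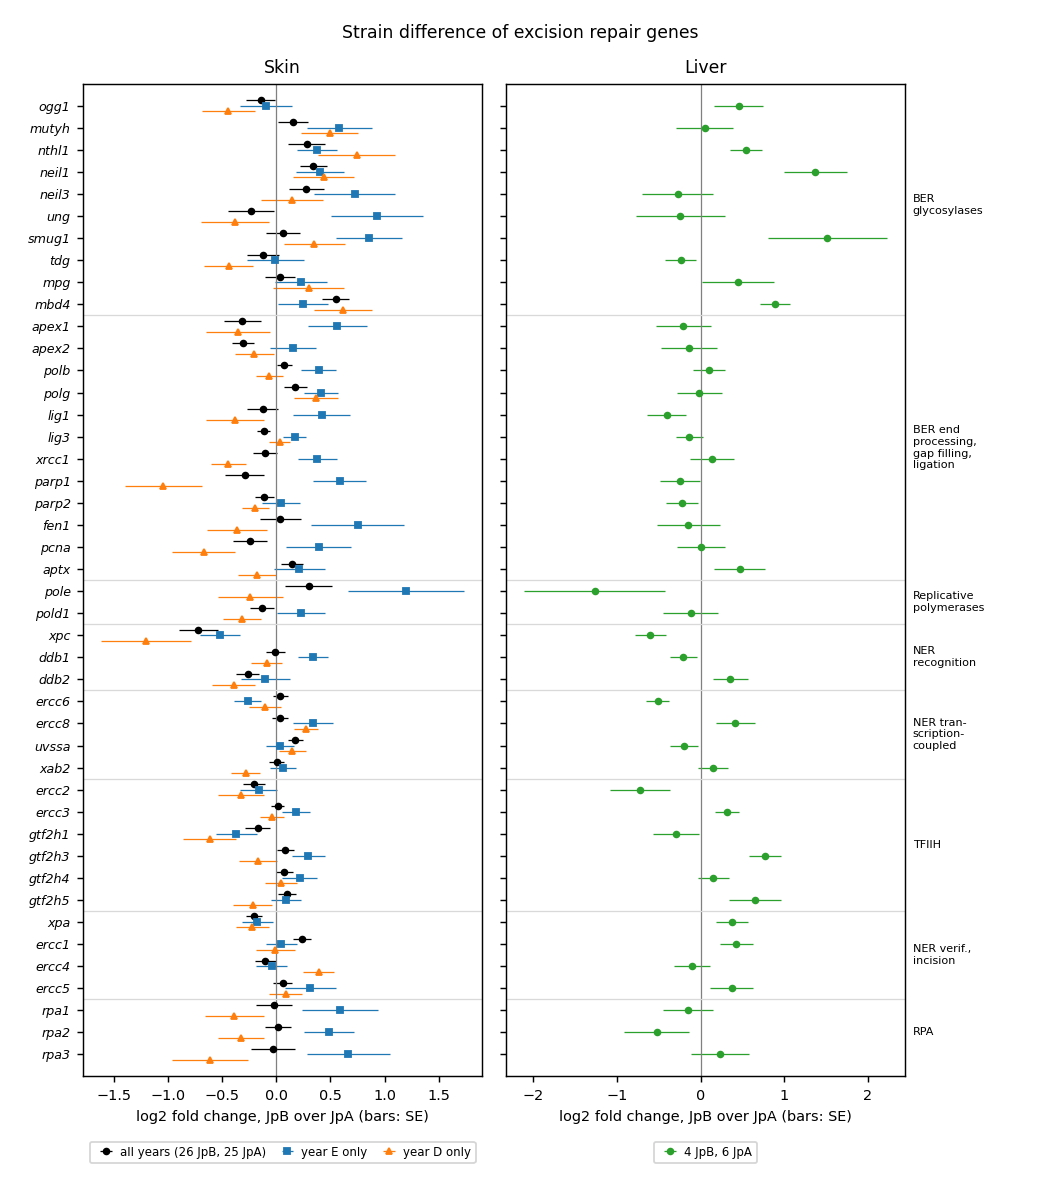
Log2 fold change, JpB over JpA, of 44 of the members in skin (left; black, all years; blue, year E; orange, year D) and liver (right), grouped by role, with bars of 1 SE. The points of years E and D lie on opposite sides of 0 for many members, parp1 and the RPA genes among them, while mbd4, neil1 and xpc keep their side in both years and in liver.

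The calls in skin changed with the libraries compared. Within year E (4 JpB and 4 JpA samples) no member passed in edgeR, against 12.8% of all genes, and 6 members had an unadjusted p under 0.05. There neil1 gave 0.40 and xpc -0.52 (SE 0.22 and 0.18, adjusted p = 0.236 and 0.086), and mbd4 gave 0.25, xpa -0.17, ercc1 0.05 and apex2 0.16. The mean hepatocyte score (mean log2 CPM of its genes) was 2.64 in JpB skin of year E against -0.47 in JpA skin. The members' median log2 fold change was 0.30. Within year D (4 JpB and 21 JpA samples) none passed, against 3.84% of all genes, 11 members had an unadjusted p under 0.05, and the median was -0.19. The folds of xpc (-1.20), mbd4 (0.62) and neil1 (0.44) were larger there than over all years, with larger standard errors (0.41, 0.27 and 0.28), and ercc1 gave -0.0079. With both years in the model and year as a covariate, 3 members passed, ercc8 (0.31) and xpc (-0.93) among them, against 12.7% of all genes. When the 16 JpA libraries with an hour in the label were left out, none of the 6 members kept its call. mbd4 gave 0.29 (edgeR adjusted p = 0.211), xpc -0.35 (0.247), apex2 -0.17 (0.462) and xpa -0.13 (0.395), while neil1 at 0.30 (0.150) and ercc1 at 0.21 (0.158) had nearly the folds they had over all samples. In that fit neil3 (0.86), polg (0.46) and pole (0.99) passed, 3 of 45 against 10.8% of all genes, all higher in JpB skin. When JpB skin 11 and 12 were left out as well, 11 members passed, against 20.2% of all genes, all higher in JpB skin, and they included the replication-linked ung (0.86), fen1 (0.74), rpa1 (0.64) and pole (1.07). Without JpB skin 3 alone, mbd4, apex2, xpc and ercc1 passed, against 24.1% of all genes. Without JpB skin 11 and 12 alone, 7 members passed, against 31.6% of all genes, with ddb2 (-0.35) added to the 6.

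Values of year E show the spread behind this. neil1 had 18.7, 16.6, 20.1 and 18.9 CPM in the 4 JpB skins against 18.4, 17.2, 9.62 and 10.5 CPM in the 4 JpA skins. The JpA skins formed a higher pair, which overlaps JpB skin and is labelled 0 min, and a lower pair, labelled sham. In JpB skin the first 2 values are 0 min and the last 2 sham, and there the sham pair was slightly the higher one. The part of this label was not tested. pole had 11.5, 12.8, 18.1 and 19.4 CPM in JpB skin of that year, against 5.14, 3.93, 2.04 and 15.4 CPM in JpA skin. The JpA skin with the highest pole level also had the highest division score (4.25), against 0.73 for the lowest. The division score as a covariate over all years left the 6 calls in place and added uvssa (0.18) and apex1 (-0.36), 8 of 45 against 28.1% of all genes.

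**Figure D2:**
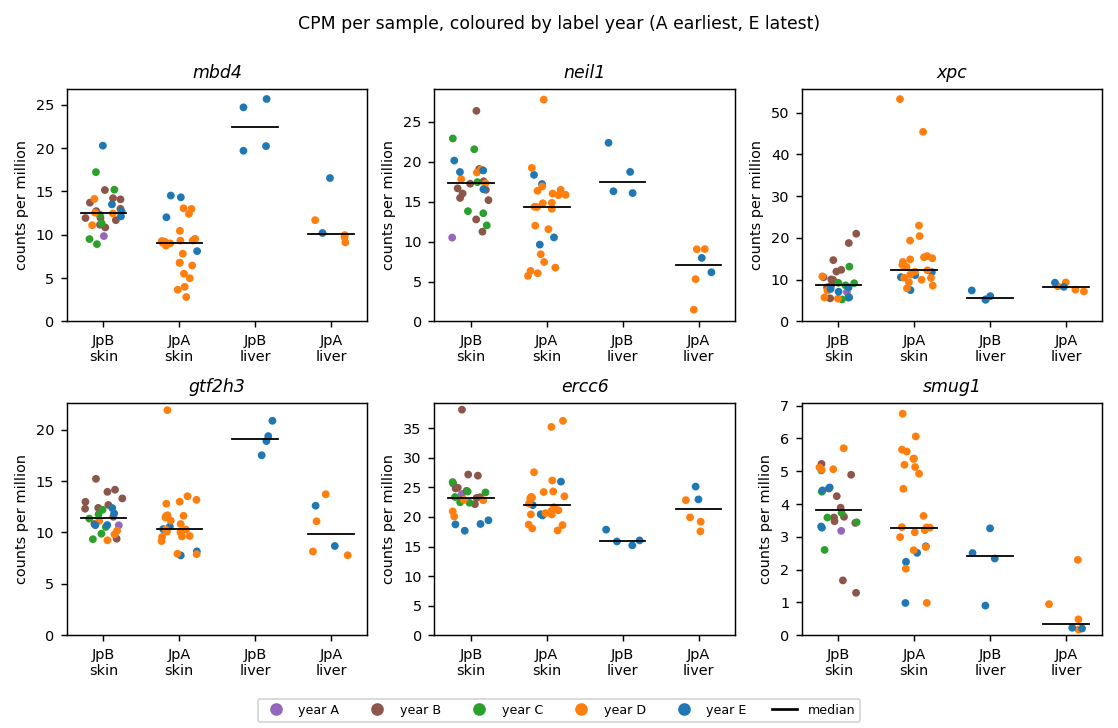
CPM of mbd4, neil1, xpc, gtf2h3, ercc6 and smug1 in each sample of JpB skin, JpA skin, JpB liver and JpA liver, coloured by label year, with the group median as a line. The 4 JpB livers lie above all 6 JpA livers for mbd4, neil1 and gtf2h3 and the 2 JpA skins above 45 CPM stand out for xpc.

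In liver, 4 of the 45 members differed between the strains, 8.89% against 8.85% of all 16818 genes tested (3.94% higher and 4.91% lower). mbd4, neil1 and gtf2h3 rose and ercc6 fell in JpB livers relative to JpA livers. For mbd4, neil1 and gtf2h3 the samples of the strains did not overlap. With TMM over the 10 livers alone, as in the test, 8 members did not overlap, ercc6 among them, against 14.4% of all genes.

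mbd4 had 20.2, 24.7, 25.7 and 19.7 CPM in JpB livers, against a lowest, median and highest of 9.12, 10.1 and 16.5 CPM in JpA livers. Every JpB liver was above every JpA liver, and the log2 fold change was 0.89 ± 0.18 (n = 4 and 6, edgeR adjusted p = 0.0198). neil1 had 16.3, 16.1, 18.7 and 22.4 CPM in JpB livers against 1.47, 7.06 and 9.07 CPM in JpA livers, a log2 fold change of 1.37 ± 0.38 (edgeR adjusted p = 0.0455). JpA liver 5 and 6, with conflicting labels, had 7.96 and 6.16 CPM of neil1, within the range of the other JpA livers. For mbd4, JpA liver 5 was the highest JpA liver at 16.5 CPM. The other JpA livers had 9.12 to 11.7 CPM of it, so that JpA liver 5 lay between them and the JpB livers. gtf2h3, a core subunit of TFIIH, had 20.9, 18.9, 17.5 and 19.4 CPM in JpB livers against 7.79, 9.89 and 13.7 CPM in JpA livers, a log2 fold change of 0.77 ± 0.19 (edgeR adjusted p = 0.0355). ercc6, the translocase that acts on stalled RNA polymerase, had 16.0, 15.9, 15.2 and 17.9 CPM in JpB livers against 17.6, 21.4 and 25.1 CPM in JpA livers, a log2 fold change of -0.51 ± 0.14 (edgeR adjusted p = 0.0431). On this scale the highest JpB liver lay just above the lowest JpA liver, so that the groups touch.

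The other named members did not pass in liver: ogg1 gave 0.45, lig1 -0.40 and pole -1.27. pole had 0.868, 1.34, 2.80 and 1.52 CPM in JpB livers, against 0.414, 1.70 and 9.99 CPM in JpA livers. JpA livers covered the whole JpB range. The call count moved with single livers, over all genes as well as among the members. It was 1, 0, 0 and 0 without JpB liver 1, 2, 3 and 4, against 1.8%, 1.7%, 1.55% and 1.38% of all genes (unadjusted p under 0.05 in 7 or 8 members). It was 2, 2 and 1 without JpA liver 1, 5 and 6, against 6.61%, 5.92% and 5.89%, and 6 without JpA liver 2 or 4, against 12.9% and 11.4%. The folds moved little in these 10 fits, over 0.82 to 1.01 for mbd4, 1.17 to 1.50 for neil1, 0.70 to 0.84 for gtf2h3 and -0.56 to -0.47 for ercc6. With JpA liver 3 and 4, of 1 fish label, summed (9 samples), 5 members passed, 4 higher and 1 lower, against 11.7% of all genes. Without JpA liver 5 and 6 together, mbd4 (0.99) and gtf2h5 (1.12) passed, against 7.39% of all genes. In year E alone, where the JpA group consists of those livers, 9 members passed against 23.8% of all genes, smug1 (3.28) and neil1 (1.32) among them. With scaling by totals alone, the median of all genes was -0.47 in place of -0.08, mbd4 gave 0.51, neil1 1.00 and gtf2h3 0.39 without passing, and ercc6 (-0.90) and xpc (-0.99) passed, against 11.7% of all genes. Summed leukocyte genes reached 325 to 482 CPM in JpB livers against 311 to 2997 CPM in JpA livers (7 genes of 12 listed, none at 0). The part of these cells in the differences was not tested.

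The strain effect itself differed between the tissues for 8 members, 17.8% against 19.8% of all 21792 genes tested (8.54% positive and 11.3% negative). In all 8 the JpB over JpA ratio was higher in liver than in skin. They included 2 glycosylases, the uracil glycosylase smug1 (1.62 ± 0.49, edgeR adjusted p = 0.0149) and neil1 (1.16 ± 0.34, adjusted p = 0.0115), the UV-lesion sensor ddb2 (0.75 ± 0.26, adjusted p = 0.0348), the TFIIH members gtf2h3 (0.81 ± 0.20, adjusted p = 0.00255), gtf2h5 (0.66 ± 0.25, adjusted p = 0.0484) and ercc3 (0.43 ± 0.15, adjusted p = 0.034), and xpa (0.70 ± 0.20, adjusted p = 0.00737). With DESeq2 6 members passed, against 19.3% of all genes. There ddb2 (0.67, adjusted p = 0.0566), ercc3 (0.35, 0.0587) and gtf2h5 (0.59, 0.0743) did not pass, and ercc6 did, with a ratio lower in liver (-0.50, 0.0258).

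smug1 had 0.906, 2.34, 3.26 and 2.51 CPM in JpB livers against 0.173, 0.358 and 2.30 CPM in JpA livers, from 24, 54, 86 and 56 counts in JpB livers and 2 to 29 counts in JpA livers. JpA liver 4 and, just above the lowest JpB liver, JpA liver 2 (0.949 CPM) lay within the JpB range and the other 4 lay under it, and the low counts limit its precision. Over all members, the interaction was positive in 34 of 45 with TMM, a count not made over all genes. Its median was 0.23 for the members, beside -0.03 over all genes. The interaction was not fitted with totals alone, with fish labels summed or with a block. Liver and skin of 1 fish label were counted as separate samples in it. Without JpA liver 2, JpB liver 3 or JpB liver 4 the count was 5 each, against 11.5%, 16% and 15.1% of all genes, and without JpA liver 5 and 6 it was 8, against 21.5%, of which pole (-1.90) was negative and smug1 was not one. In year E alone only smug1 (2.51) passed, 1 of 45 against 12% of all genes.

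Liver and skin differed far more than the strains did, and the direction of these differences rests on the scaling. With TMM scaling, 29 members passed in JpB (4 livers, 4 skins of year E), 18 higher and 11 lower in liver, 64.4% against 83.4% of all 20645 genes (36.5% higher, 47% lower). In JpA (4 livers, 5 skins of 20-month fish) 12 passed, 4 higher and 8 lower in liver, 26.7% against 56% of all 19393 genes (24.9% higher, 31.1% lower). The samples of the tissues did not overlap for 26 members in JpB, against 80.3% of all genes, and for 8 in JpA, against 49%. With scaling by totals alone, all 45 members were lower in liver in both strains and passed. With that scaling 94.3% of all genes passed in JpB (2013 higher, 17447 lower) and 82.5% in JpA (1743 higher, 14255 lower). The median of all genes was then -2.49 in JpB and -1.76 in JpA, against -0.29 and -0.16 with TMM. The liver samples were marked by hepatocyte genes, at 83124 to 244499 summed CPM over 12 genes against 39.2 to 190 CPM in skin. Directions below are those with TMM. In 40 members the sign was the same in both strains, and 10 members passed in both, all with the same sign. Signs were not compared over all genes, so this is not shown to be particular to the members.

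Of the NER members of the common path, 4 of 6 in TFIIH and all 4 for verification and incision rose in JpB livers with TMM, and 1 of 6 and 1 of 4 rose in JpA livers. The TFIIH helicase ercc2 gave -0.50 in JpB without passing. xpa had 26.0, 27.0, 30.1 and 27.7 CPM in JpB livers, against 7.76, 7.20, 7.65 and 9.34 CPM in JpB skins, with no overlap and a log2 fold change of 1.78 ± 0.11 (edgeR adjusted p = 8.09e-08). In JpA its log2 fold change was 0.85 ± 0.22 (edgeR adjusted p = 0.00805). With totals alone xpa gave -0.42 in JpB and -0.83 in JpA. Of the TFIIH members, gtf2h4 had 13.6, 17.9, 19.4 and 17.0 CPM in JpB livers against 6.93, 6.75, 7.92 and 7.90 CPM in JpB skins. Its log2 fold change was 1.19 ± 0.14 (edgeR adjusted p = 1.39e-05) in JpB and 0.72 ± 0.25 in JpA (adjusted p = 0.0286). gtf2h5 (1.17), ercc3 (0.83) and gtf2h3 (0.73) rose in JpB livers too with TMM and were under 0 with totals alone. In transcription-coupled repair, uvssa, which stabilises the stalled complex, rose by 0.66 ± 0.12 in JpB and 0.58 ± 0.20 in JpA, and ercc8 (0.75) and xab2 (0.26) rose in JpB, all with TMM and all under 0 with totals alone. The 4 members for verification and incision were under 0 with totals alone. None of the 3 recognition members passed in JpB, and ddb2 fell by 0.94 in JpA livers.

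Of the members that also serve replication, pold1, pcna and rpa2 fell in liver in both strains with TMM, and pole and lig1 in JpB. With totals alone every member fell, so that scaling does not set these members apart. pole had 0.868, 1.34, 2.80 and 1.52 CPM in JpB livers against 11.5, 12.8, 18.1 and 19.4 CPM in JpB skins, a log2 fold change of -3.25 ± 0.33 (edgeR adjusted p = 3.65e-06). In JpA pole gave -1.23 without passing. pold1 fell in both strains, by 1.38 ± 0.19 on the log2 scale in JpB and 1.44 ± 0.27 in JpA. The sliding clamp pcna fell by 1.17 in JpB and 1.19 in JpA. Within the RPA complex, which coats exposed single-stranded DNA, the subunits went apart: rpa2 had 4.08, 4.77, 9.59 and 4.70 CPM in JpB livers against 21.8, 19.0, 30.3 and 31.4 CPM in JpB skins (-2.16 ± 0.28), while rpa1 had 31.5, 48.8, 31.7 and 38.1 CPM in JpB livers against 18.4, 17.8, 28.1 and 31.5 CPM in JpB skins (0.63 ± 0.21, and -1.59 with totals alone). In JpA with TMM rpa2 fell by 1.39 on the log2 scale and rpa1 rose by 0.92 (-0.80 with totals alone), a rise that did not pass with the fish label as a block (0.84, edgeR adjusted p = 0.0739). Of the division genes, 25 of 30 fell in JpB livers and 4 of 30 in JpA livers, and their part in these results was not tested.

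The glycosylases divided. mutyh, which removes adenine paired with oxidised guanine, had 1.74, 1.69, 2.65 and 1.66 CPM in JpB livers against 8.36, 6.87, 10.7 and 11.7 CPM in JpB skins, a log2 fold change of -2.29 ± 0.24 (edgeR adjusted p = 4.54e-06). In JpA it fell by 2.11 ± 0.47 on the log2 scale. The uracil glycosylase ung fell in both strains, by 2.48 in JpB and 1.90 in JpA. It had at most 1.21 CPM in any JpB liver, against 2.15 to 4.23 CPM in the JpB skins. nthl1 (0.76), which removes oxidised pyrimidines, ogg1 (0.68), mbd4 (0.61) and the thymine glycosylase tdg (0.54) rose in JpB livers with TMM and were at or under -1.44 with totals alone. None of these 4 passed in JpA. In JpB 2 pairs of liver and skin shared a fish label, and in JpA all livers and skins did. JpA liver 1 shared its label with JpA skin 14, and JpA liver 2 with JpA skin 22 and 23. JpA liver 3 and 4 shared theirs with JpA skin 24 and 25. The tissue counts without a block took all of these as separate samples. With the fish label as a block, 18 members passed in JpB, against 73.1% of all genes, and 8 in JpA, against 52.6%, and xpa, mutyh, ung, pcna, pold1 and rpa2 were among them in both. In JpA the rises of rpa1, gtf2h4 (0.67, edgeR adjusted p = 0.0647) and uvssa (0.53, 0.0693) did not pass with the block, which left xpa as the only member higher in liver. In JpB ogg1, tdg, xab2, ercc1, ercc4 and ercc5 were among the 11 that no longer passed, ogg1 and tdg at 0.83 and 0.56. With the block the tissue difference in JpB came from the 2 pairs of 1 fish label alone. A call lost there does not show that a member does not differ.

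**Figure D3:**
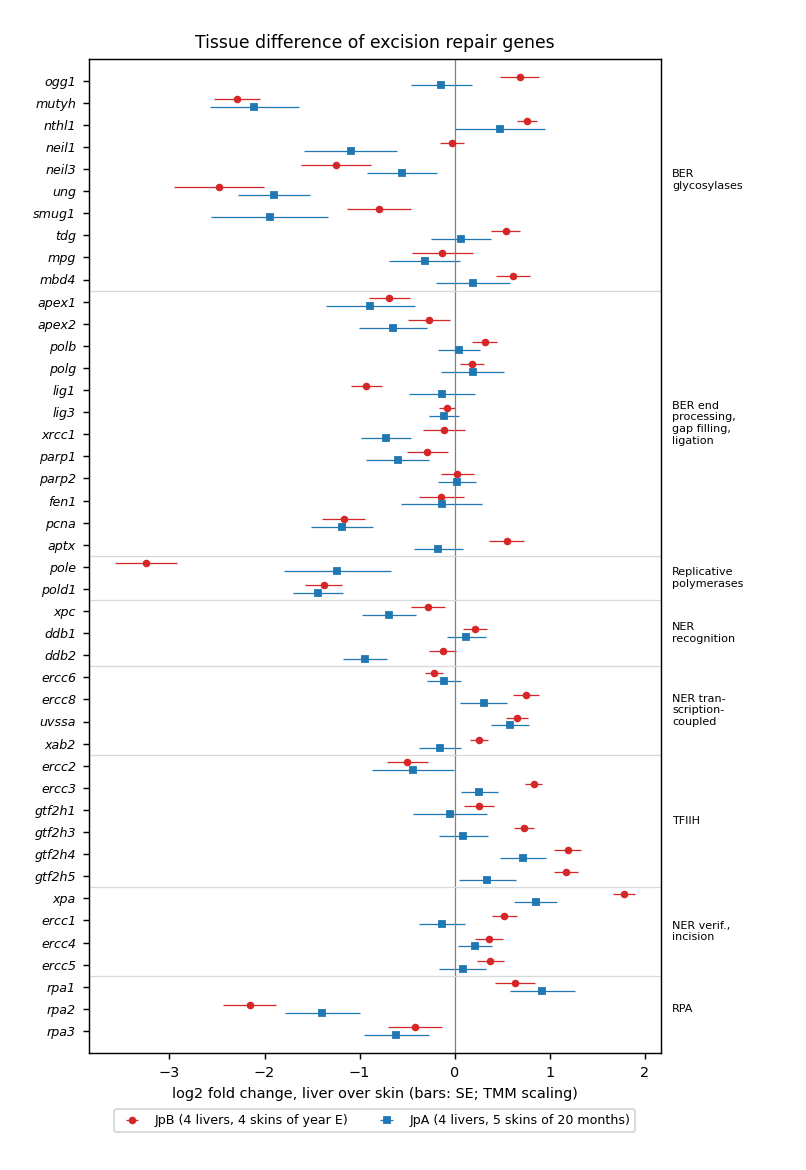
Log2 fold change, liver over skin, with TMM scaling and bars of 1 SE, for 44 of the members in JpB (red) and JpA (blue), grouped by role. xpa and gtf2h4 are highest in JpB at 1.78 and 1.19 and pole is lowest at -3.25; with scaling by totals alone all 45 members lie under 0 in both strains.

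The hour of the day could be followed in JpA skin, in 16 libraries of 24-month fish at 8 hours with 2 libraries each. A daily wave, fitted as a cosine and a sine of 24 h, passed for xpc alone, 1 of 45 or 2.22%, against 2.12% of all 19814 genes tested. The level of xpc was 7.95 and 11.2 CPM at 2 h, 12.3 and 13.1 CPM at 5 h, 10.4 and 14.2 CPM at 8 h, and 45.4 and 53.2 CPM at 11 h. It was 19.4 and 23.0 CPM at 14 h, 13.5 and 14.9 CPM at 17 h, 9.99 and 11.9 CPM at 20 h, and 10.5 and 15.7 CPM at 23 h. Both libraries of 11 h were above all others, and those of 14 h came next. The fitted wave peaked at 11.9 h with an amplitude of 0.81 on the log2 scale (edgeR adjusted p = 0.0444). The adjusted p ranged over 0.0282 to 0.125 when each library was left out in turn. xpc kept its call in 5 of those 16 fits, those without JpA skin 9, 10, 12, 19 or 20. Without JpA skin 9 the count was 3, with smug1 and mpg, against 4.26% of all genes, and without JpA skin 10 it was 6, against 8.45%. Of 9 clock genes that matched, 6 passed in the same libraries.

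Since a wave describes a sharp peak poorly, each hour was also given its own level. This was chosen after the data had been seen. Then 6 of 45 members passed, 13.3% against 3.73% of all genes: xpc, parp1, mpg, neil1, mbd4 and apex1. The nick sensor parp1 had 40.9 and 47.1 CPM at 14 h and 24.2 and 26.6 CPM at 11 h, against 9.15 to 26.0 CPM at the other hours. The endonuclease apex1 had 57.8 and 58.6 CPM at 14 h, against 18.1 to 48.6 CPM at the other hours. Both genes were highest at 14 h in both libraries. neil1 moved the other way, with 5.70 and 6.04 CPM at 11 h, 6.74 and 7.44 CPM at 14 h, and 19.2 and 27.8 CPM at 17 h. mbd4 was lowest at 14 h, with 3.66 and 3.99 CPM, and had 9.54 and 13.1 CPM at 17 h. The alkylated-base glycosylase mpg had 0.896 and 1.05 CPM at 11 h, and 2.56 and 5.62 CPM at 17 h. For these 3 glycosylases the low hours were 11 h and 14 h and the hour with the highest library was 17 h. The lower 17 h library of mpg lay under both libraries of 20 h (2.83 and 3.00 CPM). The 2 libraries of 17 h differed widely for some members, such as pcna (45.6 and 132 CPM) and rpa3 (5.64 and 27.0 CPM). The fitted range between hours was 2.34 on the log2 scale for xpc (edgeR adjusted p = 0.00478), 2.08 for parp1 (0.0277), 2.04 for mpg (0.0407), 1.99 for neil1 (0.0272), 1.54 for mbd4 (0.0374) and 1.51 for apex1 (0.0375).

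The members that varied with the hour include 3 of the 6 that differed between the strains in skin, xpc, mbd4 and neil1, and the highest xpc and lowest neil1 levels of JpA skin are those of 11 h. No hour is given for JpB skin, so the hours of the strains cannot be compared. The division score was 2.94 and 3.12 at 11 h, the lowest of all hours, and 4.55 and 5.14 at 20 h. With the division score as a covariate, no member passed in edgeR's test of the wave, against 1.14% of all genes, and 15 had an unadjusted p under 0.05. JpA skin 25, of a 20-month fish with no hour in the label, had 20.4 CPM of xpc, 2.82 CPM of mbd4 and 6.33 CPM of neil1, against 19.4 to 23.0, 3.66 to 3.99 and 6.74 to 7.44 CPM at 14 h. It is a single library chosen among the JpA skins with no hour. Its ung and xrcc1 levels, given below, lay under those of 14 h (7.16 and 9.06 CPM for ung, 24.6 and 28.1 CPM for xrcc1). Its levels of parp1, apex1 and mpg are not given here, and its hour was not tested.

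**Figure D4:**
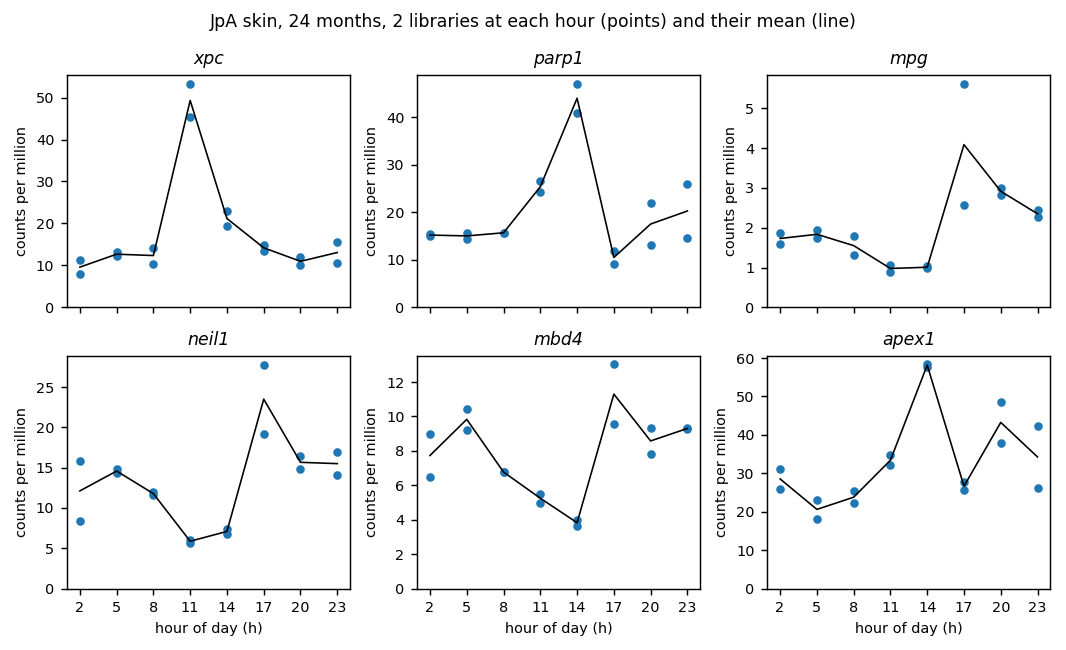
CPM by hour of day of xpc, parp1, mpg, neil1, mbd4 and apex1 in JpA skin of 24-month fish, with 2 libraries at each hour as points and their mean as a line. xpc peaks at 11 h, parp1 and apex1 at 14 h, and neil1, mbd4 and mpg are low at 11 h and 14 h. The highest library of these 3 is at 17 h, where for mpg the lower library lies under both libraries of 20 h.

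Age was compared within a strain. In JpA skin of year D, 16 samples of 24-month fish were set against 5 samples of 20-month fish. Of the 20-month samples, JpA skin 22 and 23 share 1 fish label, as do JpA skin 24 and 25. They were counted as separate samples, and no age comparison in JpA was fitted with fish labels summed. In the first comparison ung rose, 1 of 45 or 2.22%, against 2.72% of all 20144 genes (1.58% higher, 1.14% lower). Its lowest, median and highest levels were 3.49, 6.21 and 9.06 CPM at 24 months, against 4.13, 3.01, 3.17, 2.34 and 1.81 CPM in the 20-month skins. Only the top of the 20-month range reached the 24-month samples, and the log2 fold change was 1.07 ± 0.23 (edgeR adjusted p = 0.0121). lig1 (0.78, adjusted p = 0.0511) and rpa1 (0.70, adjusted p = 0.0757) came next without passing. Among the division genes 28 of 30 rose with them, and with the division score as a covariate no member passed in edgeR, against 0.0844% of all genes, and 3 had an unadjusted p under 0.05. Every 24-month library carries an hour label and no 20-month library does, so age and whatever else goes with the hour label cannot be told apart.

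Between the 20-month (5, of year D) and 13-month (4, of year E) JpA skins no member passed in edgeR, against 0.297% of all 19497 genes (0.0256% higher, 0.272% lower). 12 members had an unadjusted p under 0.05, a threshold not counted here over all genes. DESeq2 called xrcc1, against 4.25% of all genes. The scaffold xrcc1 had 18.7, 14.5, 22.7, 11.8 and 17.8 CPM at 20 months, against 11.2, 9.55, 7.15 and 10.3 CPM at 13 months. Its log2 fold change was 0.86 ± 0.23 (edgeR adjusted p = 0.151). The groups did not overlap for xrcc1, the gap-filling polymerase polb (0.51 ± 0.18) and apex2 (0.71 ± 0.26), 3 of 45 against 6.7% of all genes. The estimate was positive for 41 of the 45 members, with a median of 0.40 beside 0.01 over all genes. Age and label year coincide here and cannot be told apart.

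In JpB skin of years B and C, with year in the model, parp1 fell at 12 months (4) relative to 9 to 10 months (13), 1 of 45 against 2.7% of all 20711 genes (1.47% higher, 1.23% lower). No member's groups lay apart, against 2.87% of all genes. It had 14.6, 6.86, 7.61 and 7.56 CPM at 12 months, against 7.90, 19.1 and 24.5 CPM as lowest, median and highest at 9 to 10 months. The 12-month samples lay low apart from JpB skin 8, and the log2 fold change was -1.01 ± 0.26 (edgeR adjusted p = 0.0438). The lowest of the younger samples was JpB skin 12, which also held high muscle genes. Without JpB skin 11 and 12, 11 members passed, all lower at 12 months, against 8.97% of all genes. They included parp1 (-1.10), rpa3 (-1.13), rpa1 (-0.92), fen1 (-0.90), lig1 (-0.89) and xpc (-0.72). Without JpB skin 10, 18 or 21 no member passed in edgeR (6, 8 and 9 at an unadjusted p under 0.05), against 0.0239%, 0.359% and 0.306% of all genes, and without JpB skin 8 parp1 and lig1 did, against 1.42%. The fold of parp1 ranged over -1.41 to -0.89 in these 4 fits. Among the younger samples, JpB skin 3, 4 and 5 (summed with 6) share 1 fish label, as do JpB skin 15 and 16. They were counted as separate samples. With fish labels summed (14 samples) 4 members passed, 2 higher and 2 lower, against 8.52% of all genes. Year C held 2 samples of 12 months, 2 of 9 months and 2 of 10 months. In that year alone 10 members passed, against 10.4% of all genes, of which neil1 (0.63) was higher. In year B alone none did in edgeR (5 at an unadjusted p under 0.05), as no gene passed. The 12-month and younger samples of year C shared no label date. In year B every 12-month sample and no younger one was labelled CO-0min. Age cannot be told apart from these labels, also with year in the model.

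The link to proliferation was measured as the slope of each member on the division score. Over all 51 skin samples, with strain and year in the model, 17 of 45 members passed, all with positive slopes, 37.8% against 21.9% of all 19999 genes, of which 9.12% were positive. The steepest were ung at 0.61 ± 0.09 log2 units per unit of the score (edgeR adjusted p = 3.47e-07), pole at 0.56 ± 0.10, the flap nuclease fen1 at 0.49 ± 0.08, rpa1 at 0.48 ± 0.07 (adjusted p = 2.34e-07), rpa3 at 0.44 ± 0.08 and neil3, a glycosylase of single-stranded and replicating DNA, at 0.37 ± 0.06. pcna (0.34), lig1 (0.31), apex1 (0.30), rpa2 (0.26), tdg (0.26), pold1 (0.21), mutyh (0.21), polg (0.17), ddb1 (0.17), gtf2h5 (0.13) and ercc3 (0.10) followed. Both replicative polymerases and all 3 RPA members passed. None of the 4 members for transcription-coupled repair and none of the 4 for verification and incision did, and of the 6 TFIIH members ercc3 and gtf2h5 did.

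The levels of ung show the range. ung had 0.408 CPM in JpB skin 12, whose division score was 0.87, the lowest in JpB skin, against 8.34 CPM in JpB skin 13. Without JpB skin 11 and 12 the count was 17, against 10.5% of all genes. Without the 2 samples farthest from the median score it was 13, all positive, also against 10.5% of all genes. In JpA skin alone 7 members passed, against 3.19% of all genes, and in JpB skin alone 20 did, against 27.1%, of which uvssa (-0.12) was negative. Whether the slopes differ between the strains was not tested. With a score made of 20 replication licensing genes in place of the mitosis genes, 26 members passed, against 23.5% of all genes, 24 positive and 2 negative (mbd4 at -0.29 and uvssa at -0.18).

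Within the 16 JpA skins of 24 months the slope passed for xpc alone, at -0.94 ± 0.20 (edgeR adjusted p = 0.022), 1 of 45 against 1.2% of all 18285 genes (1.01% positive, 0.197% negative). The direction rests on the score: on the licensing score xpc gave 0.53 without passing. With the hour in the model xpc gave -0.68 (edgeR adjusted p = 0.135). No member passed there in edgeR, against 1.1% of all genes (7 members at an unadjusted p under 0.05). Without the 2 libraries farthest from the median score none passed either, against 0.224% of all genes (2 members at an unadjusted p under 0.05). On the licensing score 7 members passed in these libraries, all positive: pole (1.34), pcna (1.22), rpa1 (1.16), fen1 (1.13), lig1 (0.95), rpa2 (0.92) and pold1 (0.77), against 0.18% of all genes.

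**Figure D5:**
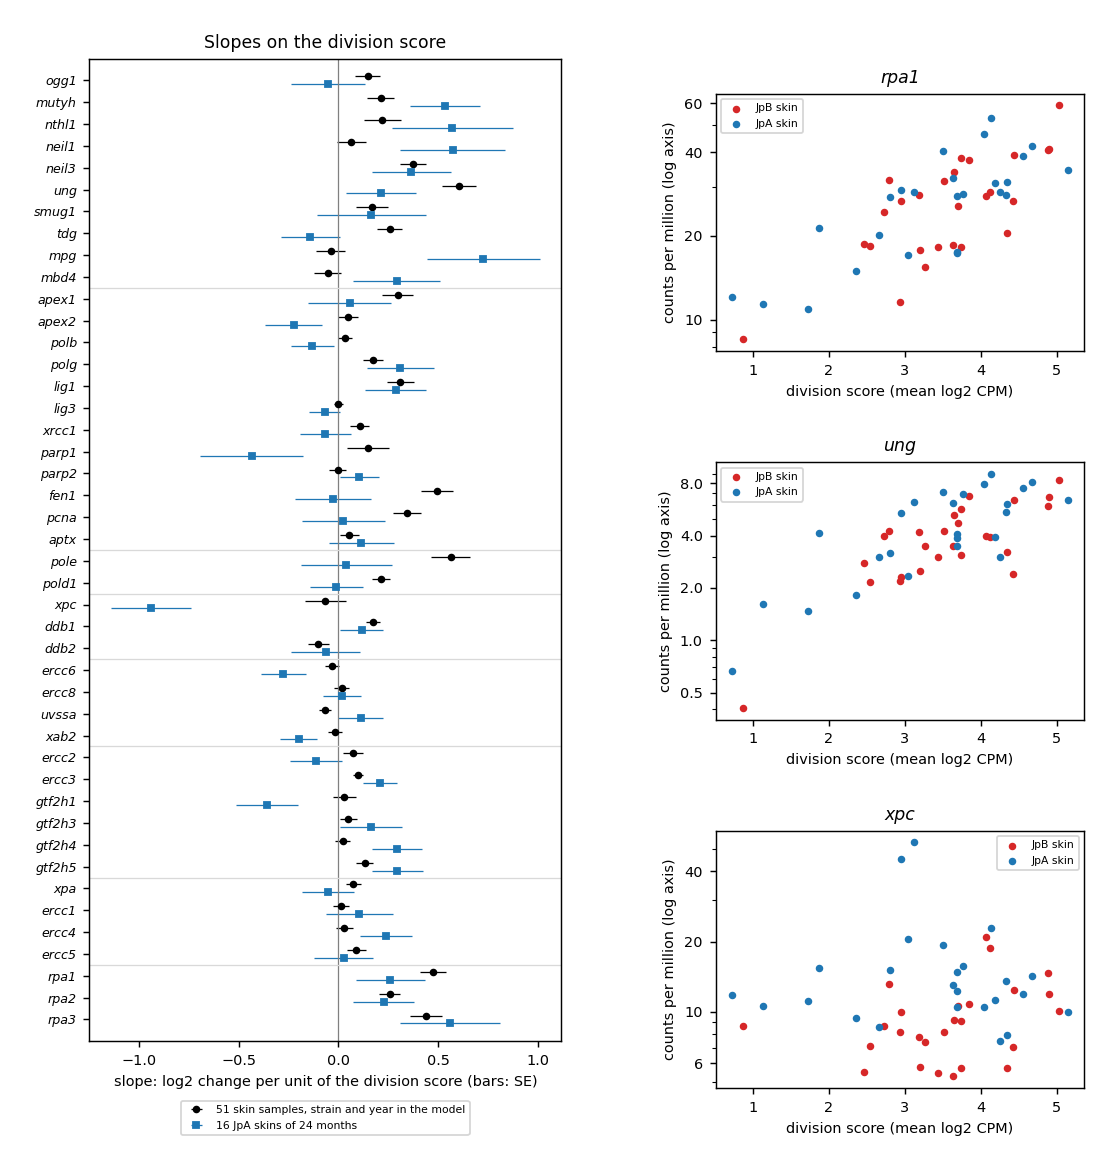
Left, slopes of 44 of the members on the division score (log2 change per unit of the score, bars of 1 SE) over 51 skin samples (black) and in 16 JpA skins of 24 months (blue). Right, CPM on a log axis against the division score for rpa1, ung and xpc in JpB skin (red) and JpA skin (blue); rpa1 and ung climb with the score, at slopes of 0.48 and 0.61, and the 2 xpc values above 45 CPM lie near a score of 3.

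Other repair lists give the frame for the members. Of 22 further BER and NER genes that matched a gene model, 1 rose and 3 fell in JpB skin, 2 rose and 1 fell of the 21 tested in JpB liver, and 4 had a positive and 3 a negative slope on the division score. Of 7 mismatch repair genes, 1 fell in JpB skin and 1 rose in JpB liver. Of 19 genes for the repair of double-strand breaks, 2 rose and 2 fell in JpB skin, 1 fell in JpB liver, and 10 had a positive and 1 a negative slope. Of 8 genes of the damage response, 2 fell in JpB skin, 3 fell in JpB liver, and 3 had a positive and 1 a negative slope. Of 20 licensing genes, 1 rose and 4 fell in JpB skin, none passed in JpB liver, and 16 had a positive slope.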

How the data were processed

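RNA of skin and liver of JpB and JpA males was sequenced as paired-end mRNA libraries. Per the submitters' processing notes and the study's methods, reads were aligned by TopHat2 against version 5.0 of the X. maculatus genome, and featureCounts counted them per gene. Versions, the strand setting and the treatment of reads that map to several places are not given in the sources used here. The authors deposited raw counts per gene model, with no normalization. Symbols and positions came from the RefSeq table of the assembly X_maculatus-5.0-male, which matched all 27242 IDs.

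Libraries that shared a fish label were added together if their chi-square per degree of freedom, taken over genes of 50 or more counts, stayed below 3. The analysis used R 4.3.3, edgeR 4.0.16 (filterByExpr with a minimum count of 10, TMM, glmQLFit and glmQLFTest; prior count of 2 for log2 CPM), limma 3.58.1 and, as an alternative, DESeq2 1.42.0. Samples of each comparison were fitted together, and p-values were adjusted over all genes tested. Whether groups overlap was counted on the scaling of each comparison's own samples. The pipeline was tested on simulated data. Figures were drawn with matplotlib 3.10.9 in Python 3.11.15. Alternatives were other scaling, filters, years, covariates, blocks, summing of libraries and leaving out libraries. The members, gene lists and comparisons were chosen with earlier results of these data known. Named members are those that passed, with full values for at most 8 in a comparison, and ogg1, lig1 and pole between the strains. Liver and skin with 1 fish label were taken to come from 1 fish, which the counts do not show. The deviations of such pairs from their tissue means had a median correlation of 0.03 in JpA (7 pairs) and 0.02 in JpB (2 pairs). Promoter and protein sequences were not used here, and 1 member is counted but not reported here by name.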

Additional observations from a re-analysis of the deposited data

Results flagged for a closer look

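In 70 checks of 14 members in 5 groups of 4 to 6 samples, 7 samples lay far from the rest of their group by Dixon's test. Each was the highest of its group. Chance gives about 1 in 20 only where values are normal and checks independent. Here CPM were used and the checks share samples, so whether 7 exceeds chance was not tested. Among the livers the flagged samples were ercc1 in JpA liver 1 (9.43 CPM, the others 5.79 to 6.72), mbd4 in JpA liver 5 (16.5 CPM, the others 9.12 to 11.7) and smug1 in JpA liver 4 (2.30 CPM, the others 0.173 to 0.949). Among JpB skins of year E they were mbd4 in JpB skin 30 (20.3 CPM, the others 12.1 to 13.5) and ogg1 in JpB skin 33 (3.14 CPM, the others 2.41 to 2.49). Among JpB skins of year D they were pole in JpB skin 26 (25.6 CPM, the others 10.5 to 13.1) and smug1 in JpB skin 29 (5.70 CPM, the others 5.05 to 5.12).

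The strain effect differed between liver and skin, by the interaction test, for members that include ddb2 (0.75), ercc3 (0.43), gtf2h3 (0.81), gtf2h5 (0.66), neil1 (1.16), smug1 (1.62) and xpa (0.70), all as log2 values, liver minus skin.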

How the results depend on the processing

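Counts of members that passed, beside the count over all genes, changed as follows. Strain in skin (6, 5093): 0 (2666) in year E alone, 0 (785) in year D alone, 3 (2570) with both years and year as a covariate, 3 (2251) without JpA libraries with an hour, 11 (4197) without these and JpB skin 11 and 12. apex2 turned to 0.16 in year E and ercc1 to -0.0079 in year D. Strain in liver (4, 1488): 9 (4035) in year E, 7 (3195) with DESeq2, 2 (1967) with scaling by totals alone, 1 (1005) without a filter, 2 (1182) without JpA liver 5 and 6. Strain by tissue (8, 4325): 1 (2627) in year E, where gtf2h5 turned to -0.0023.

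Tissue: 45 members in each strain with scaling by totals alone (19460 genes in JpB and 15998 in JpA). There, in JpA, uvssa gave -1.07, gtf2h4 -0.95, xpa -0.83 and rpa1 -0.80. In JpB, ogg1 gave -1.53, nthl1 -1.44, tdg -1.67, mbd4 -1.59, polb -1.89, aptx -1.67, ercc8 -1.44, uvssa -1.54, xab2 -1.94, ercc3 -1.37, gtf2h3 -1.47, gtf2h4 -1.01, gtf2h5 -1.04, xpa -0.42, ercc1 -1.69, ercc4 -1.83, ercc5 -1.82 and rpa1 -1.59. Hour of day (1, 420): 5 (2074) with DESeq2, 0 (397) with totals alone, 6 (739) with hours as levels, 0 (226) with the division score.

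Age in JpA, 24 against 20 months (1, 548): 4 (1065) with DESeq2, 2 (738) without a filter, 0 (17) with the division score. Age in JpA, 20 against 13 months (0, 58): 1 (822) with DESeq2. Age in JpB (1, 559): 4 (1959) with DESeq2, 0 (443) without a filter, 4 (1757) with fish labels summed, 0 (0) in year B, 10 (2145) in year C, 11 (1849) without JpB skin 11 and 12. Division in JpA skin (1, 220): 7 (33) on the licensing score, where fen1 gave 1.13, pold1 0.77 and xpc 0.53, 0 (41) without the 2 farthest libraries, 0 (202) with the hour, and 1 (695) with DESeq2. Division in all skin (17, 4382): 26 (4702) on the licensing score, 13 (2082) without the 2 farthest samples, 17 (2083) without JpB skin 11 and 12, and 7 (651) in JpA alone.

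With each sample left out in turn, members ranged over 0 to 6 for strain in liver (238 to 2129 genes), 5 to 10 for strain by tissue (2505 to 4758), 8 to 13 for tissue in JpA (9701 to 12228), 23 to 27 for tissue in JpB (16740 to 17354), 0 to 6 for hour (180 to 1685), 1 to 1 (228 to 444) and 0 to 0 (5 to 68) for the age comparisons in JpA, and 0 to 2 (5 to 297) for age in JpB.

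Replicate numbers pair no fish across the strains. Of 18 shared numbers in skin 1 correlated best with its own (median correlation 0.06), and of 4 in liver none did (-0.05). With the replicate block 3 members (mbd4, xpc, ercc1) and 3357 genes passed in skin, and 0 members and 87 genes in liver. The block over fish labels gave 18 members (15098 genes) for tissue in JpB and 8 (10195 genes) in JpA. Causes of these changes were not tested. Depth limits smug1, ung and pole in liver.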
